A study of Mus musculus with 6 samples.

Results

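The GABA-B receptor complex was examined through 5 genes, the receptor subunits Gabbr1 and Gabbr2 and the auxiliary subunits Kctd8, Kctd12 and Kctd16. Its members were all probe sets whose array annotation lists exactly 1 of these gene symbols, which gave 7 of the 45037 probe sets tested. Gabbr1 had 4 of them, Kctd8 had 2 and Kctd16 had 1. No probe set was listed for Gabbr2. The 1 probe set listing Kctd12 also lists the microRNA gene Mir5130, so neither Gabbr2 nor Kctd12 had a member probe set. Values of the shared probe set are given apart, under other observations. Thus 3 of the 5 genes were measured as members, among 18193 genes that had a 1-gene probe set in all.

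RNA of the brain with the cerebellum removed was compared between 3 samples of Gb5-deficient mice, called knockouts here, and 3 of wild-type mice, with 1 Affymetrix array per sample. Gb5 is the G protein beta subunit encoded by Gnb5. Mice came from littermate cohorts matched for age and sex, per the labels' protocols, and the series design calls the 3 samples of each genotype biological replicates. The knockout allele, the strain, the ages and each animal's sex are not given in the sources used here, and no treatment is named.

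GABA-B receptors are the metabotropic receptors for GABA, the main inhibitory transmitter of the brain. GABBR1 binds GABA and GABBR2 carries the signal to Gi and Go proteins, and both subunits are needed for a working receptor at the cell surface. The freed beta-gamma dimers open GIRK potassium channels and inhibit presynaptic calcium channels. KCTD8, KCTD12 and KCTD16 bind the intracellular tail of GABBR2 and the beta-gamma dimer, and set the kinetics of the response. Gb5 pairs with RGS proteins of the R7 family, which speed the shutdown of Gi and Go signals.

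All values are deposited log2 expression values, and differences are knockout minus wild type, so that a difference of 1 is a doubling. The targeted gene was low in every knockout array. The brighter Gnb5 probe set read 3.67, 3.00 and 3.56 in knockout replicates 1, 2 and 3 and 8.79, 8.98 and 9.30 in wild-type replicates 4, 5 and 6. The dimmer Gnb5 probe set, 1447630_x_at, read 3.83, 3.63 and 3.63 in the knockouts, against 4.90, 4.95 and 4.20 in the wild types. Its difference of -0.98 did not pass (limma adjusted p = 0.173). Where the probes of either lie relative to the altered part of the gene was not given. Of the arrays, knockout replicate 1 lay farthest along the first principal component, at -49.8 against -5.82 and -8.47 for the other knockouts. Wild-type replicates 4, 5 and 6 lay at 32.3, 15.4 and 16.4. All knockouts thus lay below all wild types on this component, which held 40.3% of the variance. Knockout replicate 2 read high both for the female-specific RNA Xist (8.31) and for the Y-linked gene Eif2s3y (11.3). Wild-type replicate 4 was the only array with low Xist (4.96) and high Eif2s3y (11.3). Knockout replicate 3 and wild-type replicate 5 had high Xist (10.6 and 10.8) beside Eif2s3y values of 6.97 and 6.05, above the lowest array (2.96). Whether each array holds RNA of 1 animal is therefore not known, and n counts arrays, so p-values measure the spread between arrays.

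In the knockout brains no measured member of the GABA-B complex differed at the adjusted threshold. Of the 7 member probe sets, 0 passed a limma adjusted p under 0.05, against 0.0266% of all probe sets. At an unadjusted limma p under 0.05 the count was also 0 of 7, against 14.4% of all probe sets. Differences ran from -0.22 to 0.16, 4 of them negative and 3 positive, with a median of -0.05 beside 0.03 over all probe sets. The 95% intervals of the 7 together spanned folds from 0.733 (Gabbr1 1425595_at) to 1.43 (Gabbr1 1422051_a_at). Each single interval was narrower than this span, such as 0.834 to 1.11 for Kctd16, and included no change. With 3 arrays a group, a change within a probe set's own interval was thus not distinguishable from none. Adjusted p values ran from 0.365 to 0.907.

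The receptor subunit gene Gabbr1, which encodes the GABA-binding subunit of the receptor, was read most brightly by probe set 1455021_at. It gave 12.53, 12.37 and 12.59 in knockout replicates 1 to 3 and 12.66, 12.68 and 12.63 in wild-type replicates 4 to 6. Every knockout array lay below every wild-type array, but the gap between the groups was only 0.04, less than the SD of the knockouts. The mean of the knockouts was 12.50 ± 0.115 (SD, n = 3) and that of the wild types 12.66 ± 0.0218 (SD, n = 3). The difference was -0.16 ± 0.102 (SE), a fold of 0.895 with a 95% interval from 0.763 to 1.05, and it did not pass (limma adjusted p = 0.49). The exact permutation p, two-sided, was 0.1, which is the lowest value possible with 3 arrays a group. Without knockout replicate 2 the difference was -0.10, without replicate 1 it was -0.18 and without replicate 3 -0.21. Groups did not overlap at 3 of the 7 member probe sets, beside 21.5% of all probe sets.

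The second-brightest Gabbr1 probe set, 1437188_at, showed no separation of the genotypes. Its knockout arrays read 10.26, 10.00 and 10.12 and its wild-type arrays 10.22, 10.30 and 10.01. The ranges of the groups nearly coincided. The difference was -0.05 ± 0.118 (SE), with a 95% interval from -0.32 to 0.22 (limma adjusted p = 0.872).

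Probe set 1422051_a_at, whose name marks it as matching several transcripts of 1 gene, had the widest spread of the members. Knockout arrays read 7.91, 7.61 and 7.38, and wild-type arrays 7.25, 7.49 and 7.68. The groups overlapped, with knockout replicate 1 highest and wild-type replicate 4 lowest. The difference was 0.16 ± 0.159 (SE), opposite in sign to that of the brightest probe set, with an interval from -0.20 to 0.52 (limma adjusted p = 0.67). Without knockout replicate 1 it was 0.02.

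The dimmest Gabbr1 probe set, 1425595_at, lay at percentile 11.8 of all probe sets by its mean over the 6 arrays. Knockout arrays read 2.92, 2.94 and 2.95, and wild-type arrays 3.25, 3.19 and 3.02. Here too the knockouts lay below the wild types, by a gap of 0.07. Its difference of -0.22 ± 0.102 (SE) was the largest in size among the members and had the smallest unadjusted limma p, 0.0616 (adjusted p = 0.365). No detection calls were used, so whether a probe set this dim reads Gabbr1 RNA was not shown.

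The auxiliary subunit gene Kctd8 had a probe set just below the middle of the array, 1455923_at, at percentile 40.8. Knockout arrays read 5.14, 5.17 and 4.80 and wild-type arrays 4.93, 4.93 and 4.90. Knockout replicates 1 and 2 lay above all wild-type arrays and replicate 3 below them, so the groups overlapped. The knockout SD was 0.201 and the wild-type SD 0.0174. The difference was 0.11 ± 0.12 (SE), a fold of 1.08 with an interval from 0.896 to 1.30 (limma adjusted p = 0.692). It was 0.06 without knockout replicate 1, 0.05 without replicate 2 and 0.23 without replicate 3.

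The other Kctd8 probe set, 1441495_at, was as dim as the dimmest of Gabbr1, at percentile 11.5. Its knockout arrays read 3.06, 3.14 and 2.94 and its wild-type arrays 2.84, 3.07 and 3.12, and the ranges of the groups overlapped over most of their length. Its difference was 0.04 ± 0.114 (SE) (limma adjusted p = 0.907).

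Kctd16, the auxiliary subunit gene with a single probe set, 1429666_at, varied least of all members. The 3 knockout arrays read 3.99, 4.00 and 3.97 and the 3 wild-type arrays 4.06, 4.01 and 4.06, a range of 0.09 over the 6 arrays. The knockouts lay below the wild types by a gap of 0.0065. The difference was -0.05 ± 0.0923 (SE), a fold of 0.963 with an interval from 0.834 to 1.11 (limma adjusted p = 0.821). At percentile 28.8 the signal of this probe set may be too low for a change to be seen. Gabbr1 thus had the only 3 member probe sets above the median of all probe sets, and the 4 below it were both of Kctd8, that of Kctd16 and the dimmest of Gabbr1. Levels were not ranked between genes, because the brightness of a probe set also depends on its probes.

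**Figure D1:**
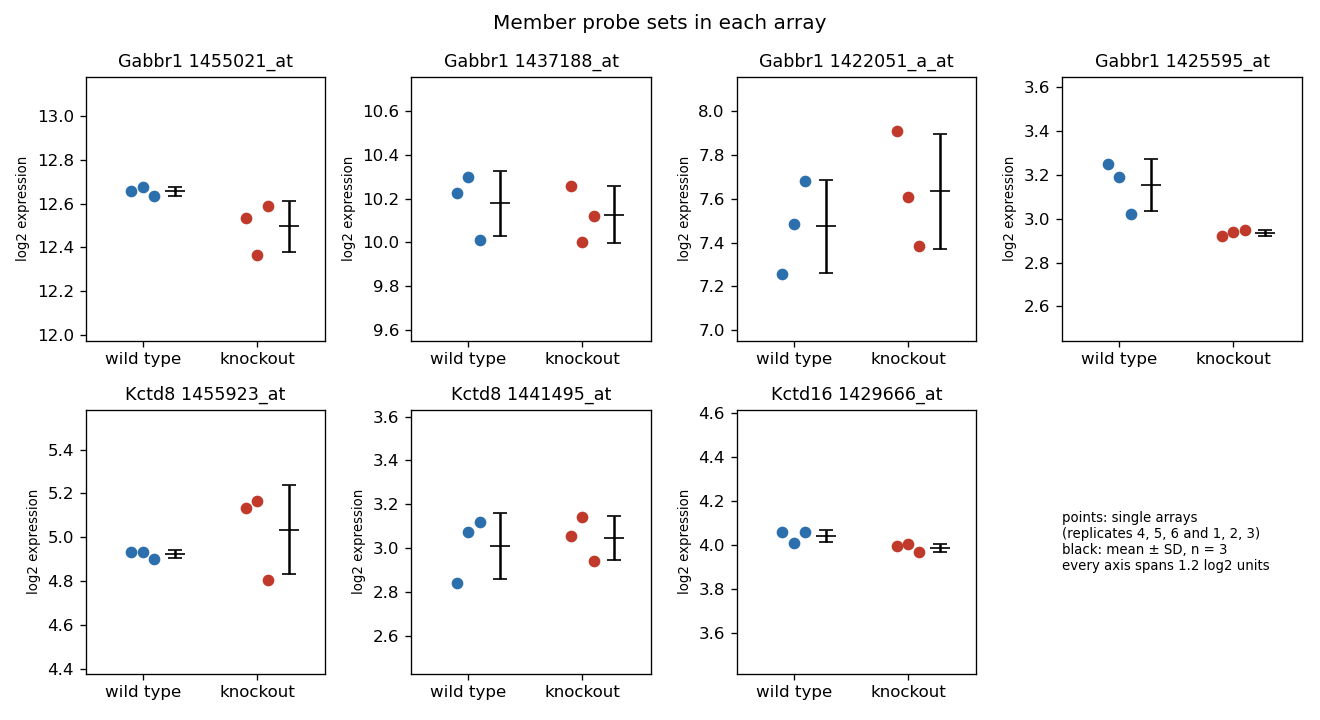
Log2 expression (y axis, a separate axis of equal span for each panel) of the 7 member probe sets in wild-type (blue) and knockout (red) arrays, 1 point per array, with the group mean ± SD (n = 3) in black. Groups do not overlap for Gabbr1 1455021_at, Gabbr1 1425595_at and Kctd16 1429666_at, and the gaps there are 0.04, 0.07 and 0.0065.

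Probe sets of 1 gene were compared on each array, which asks whether they read the same genotype difference. Relative to 1455021_at, Gabbr1 probe set 1422051_a_at averaged -4.86 ± 0.303 (SD, n = 3) over the knockouts and -5.18 ± 0.226 (SD, n = 3) over the wild types. That is 0.32 higher in knockouts, with overlapping groups. For 1437188_at this within-array difference was 0.11 and for 1425595_at -0.06. Between the Kctd8 probe sets it was -0.08. Exact permutation p values for these 4 pairs, two-sided, ran from 0.3 to 0.6 and were 0.6 for each after Benjamini-Hochberg adjustment. With 3 against 3 arrays no p under 0.1 was possible, so these tests cannot show that the probe sets act alike.

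Across the 6 arrays, correlations between probe sets of a gene ranged from negative to strongly positive. Against 1455021_at, 1437188_at had Pearson's r = 0.53 (exact permutation p = 0.268, adjusted over 4 pairs 0.411) and Spearman's rho = 0.60 (p = 0.242, adjusted 0.474). Probe set 1422051_a_at had r = -0.40 (exact permutation p = 0.449, adjusted 0.449) and rho = -0.49 (p = 0.356, adjusted 0.474). The dim 1425595_at had r = 0.70 (exact permutation p = 0.0903, adjusted 0.361) and rho = 0.89 (p = 0.0333, adjusted 0.133). The Kctd8 pair had r = 0.50 (exact permutation p = 0.308, adjusted 0.411) and rho = 0.31 (p = 0.564, adjusted 0.564). None of the 4 pairs passed after adjustment, which with 6 arrays does not show that the probe sets disagree. Without knockout replicates 1 and 2, the arrays farthest from the median of the brighter probe set for both genes, r was 0.66, -0.03, 0.90 and 0.11 in the same order. Groups of 3 are too small for a value within a genotype.

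**Figure D2:**
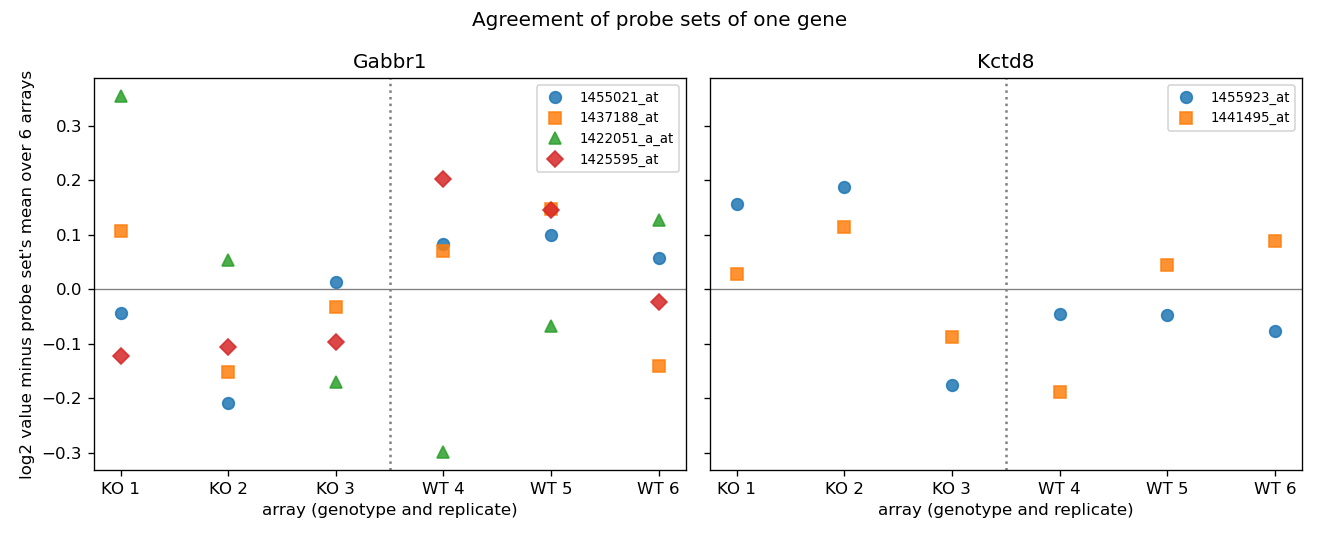
Deviation of each probe set from its own mean over the 6 arrays (y axis, log2) in knockout (KO) and wild-type (WT) arrays, for the 4 Gabbr1 and the 2 Kctd8 probe sets. In knockout replicate 1 the Gabbr1 probe set 1422051_a_at is high while 1455021_at is slightly low, and in wild-type replicate 4 the order is turned.

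The balance between receptor and auxiliary transcripts was compared as the difference of log2 values on the same array, with the brightest probe set standing for each gene. Kctd8 relative to Gabbr1 was -7.40, -7.20 and -7.78 in the knockouts, against -7.72, -7.74 and -7.73 in the wild types. It was 0.27 higher in knockouts, but knockout replicate 3 lay below all wild types (exact permutation p = 0.4, two-sided; adjusted p = 0.4 over 2 comparisons). Without knockout replicate 2 the difference was 0.14, and without replicate 3 it was 0.43. Kctd16 relative to Gabbr1 was -8.54, -8.36 and -8.62 in the knockouts, against -8.60, -8.67 and -8.58 in the wild types. It was 0.11 higher, again with overlapping groups (exact permutation p = 0.3; adjusted p = 0.4), and 0.03 without knockout replicate 2. With the mean of each gene's probe sets in place of the brightest, Kctd16 relative to Gabbr1 was 0.01 higher and Kctd8 relative to Gabbr1 0.14 higher. These values show only whether the probe sets of 2 genes changed unequally, not how many molecules of each were present.

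The channels that the receptor opens were read next. Kcnj3, the GIRK subunit found in most neuronal channels, read 10.34, 10.54 and 10.52 in the knockouts, against 10.73, 10.72 and 10.81 in the wild types. All knockouts lay below all wild types, where groups did not overlap at 21.5% of all probe sets. The difference was -0.28 ± 0.102 (SE), with a limma adjusted p of 0.279. Kcnj9 differed by 0.49 ± 0.252 (adjusted p = 0.404), where wild-type replicate 6 stood low at 8.50 and the other wild types read 9.59 and 9.46. Kcnj5 differed by 0.18 and Kcnj6 by -0.16, with limma adjusted p values of 0.484 and 0.56. Both were read below the median of all probe sets, at percentiles 47.2 and 37.6. Their signals may be too low for a change to be seen. The GIRK subunits thus had differences of both signs, and 0 of 4 passed.

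**Figure D3:**
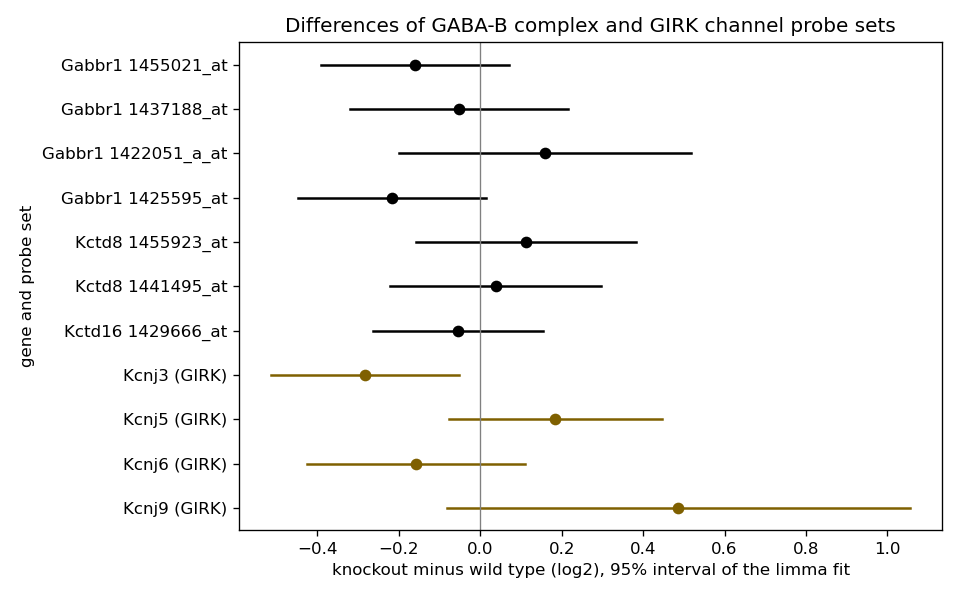
Knockout minus wild type (x axis, log2) with the 95% interval of the limma fit for the 7 member probe sets (black) and the brightest probe set of each of the 4 GIRK subunit genes (brown). All intervals of the members include 0, and of the GIRK subunits that of Kcnj3 lies below 0, from -0.51 to -0.05, before adjustment.

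Genes around the receptor were read from 8 pathway lists, each gene through its brightest 1-gene probe set. Of 59 measured genes, 0 passed a limma adjusted p under 0.05, against 0.022% of all 18193 genes read this way. An unadjusted limma p under 0.05 was found for 22.0% of them, beside 15.6% of all genes. At that level 7 of the 59 were higher, beside 9.89% of all genes, and 6 were lower, beside 5.68%. Their median difference was 0.06, and that of all genes 0.05.

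Of the Gi and Go alpha subunits that couple to the receptor, 0 of 5 had an unadjusted p under 0.05, beside 15.6% of all genes. That share also stands beside the counts of the next lists. Gnai1 differed by -0.22 and Gnao1, the abundant neuronal Go subunit, by 0.16. Of the beta and gamma subunits 0 of 8 did, with Gng3 at 0.17 and Gnb2 at 0.32. Among 5 presynaptic calcium channel subunits 1 did, the auxiliary subunit Cacnb4 at -0.38 ± 0.132 (SE), while Cacna2d1 differed by -0.12. In the R7 RGS complex 2 of 7 did, the Gb5 partners Rgs6 at 0.48 ± 0.139 and Rgs9 at 0.30 ± 0.11. Limma adjusted p values of the genes named here were 0.234 or more.

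Genes that make, package and clear the ligand had differences of both signs. Gad1, which makes GABA, differed by -0.33 ± 0.118 (limma adjusted p = 0.279), and Slc32a1, the vesicular GABA transporter, by 0.28 ± 0.112 (0.315). Gad2, the other GABA-synthesizing enzyme, differed by 0.03. For both Gad1 and Slc32a1 the knockout and wild-type arrays did not overlap, which was so at 21.5% of all probe sets. Of the 6 measured genes of this list, the unadjusted p was under 0.05 for 1 that was higher and 1 that was lower. Over all genes the shares were 9.89% and 5.68%.

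Of 8 genes for proteins known to bind GABBR1 or GABBR2, 1 that was higher and 2 that were lower had an unadjusted p under 0.05. At that level 9.89% of all genes were higher and 5.68% lower. Jakmip1, whose product links GABBR1 to microtubules, differed by 0.30 ± 0.108, Atf4, a transcription factor that binds GABBR1, by -0.44 ± 0.142 and App, whose product binds the extracellular part of GABBR1a, by -0.26 ± 0.104. Their limma adjusted p values were 0.279, 0.258 and 0.315. Among 16 measured genes of other KCTD proteins, 3 were higher (Kctd13 at 0.39, Kctd2 at 0.31 and Kctd17 at 0.27) and 1 was lower (Kctd21 at -0.38) among those with an unadjusted p under 0.05. The shares of all genes beside these counts were again 9.89% and 5.68%. KCTD2 and KCTD17 are known as adaptors of cullin-3 ubiquitin ligases. Kctd21 had the smallest adjusted p of the 59 genes, 0.212. Kctd12b, the paralog of Kctd12, read 6.45, 6.51 and 6.60 in the knockouts, against 6.52, 6.74 and 6.48 in the wild types, a difference of -0.06 ± 0.11 (SE) with overlapping groups.

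Markers of the cell types of the tissue were read in the same way. In bulk RNA, fewer cells of a type and less RNA per cell cannot be told apart. Among 54 measured markers in 8 lists, 0 passed a limma adjusted p under 0.05, and 22.2% had an unadjusted p under 0.05, beside 15.6% of all genes. Of these, 5 were higher and 7 lower, where 9.89% and 5.68% of all genes were. Neuron markers, which label the cells that hold most GABA-B receptors, were higher in 4 of 8 and lower in 4, with a median of 0.00. Their summed signal, as log2, ran from 15.17 to 15.22 in knockouts and from 15.15 to 15.24 in wild types. Snap25, a synaptic vesicle fusion gene, differed by -0.33 and Tubb3, a neuronal tubulin gene, by 0.27. Oligodendrocyte markers were lower in 7 of 7 with a median of -0.24, and their summed signal ran from 14.35 to 14.70 in knockouts and from 14.65 to 14.82 in wild types. Cldn11 differed by -0.59 and Ermn by -0.56. The oligodendrocyte median was -0.13 without knockout replicate 1 or without wild-type replicate 6, and -0.42 without knockout replicate 3. Astrocyte markers were lower in 5 of 8, with a median of -0.16 and summed signals from 14.54 to 14.75 and from 14.76 to 14.91. Their gap-junction genes Gjb6 and Gja1 differed by -0.59 and -0.45. The 3 that were higher were Aldh1l1 at 0.35, Aldoc at 0.02 and Gfap at 0.01. The astrocyte median was -0.07 without knockout replicate 1 and -0.09 without wild-type replicate 6. Microglia markers were higher in 6 of 8 with a median of 0.24, at 13.04 to 13.15 and 12.86 to 12.92, and Aif1 and Csf1r differed by 0.35 and 0.30. The 2 that were lower were P2ry12 at -0.20 and C1qa at -0.08. Endothelial markers were lower in 6 of 7 with a median of -0.13, at 10.90 to 11.10 and 10.93 to 11.32, and Cdh5 and Flt1 differed by -0.27 and -0.30. The 1 that was higher was Cldn5 at 0.09, the brightest of the list at a mean of 9.71. Cdh5 and Pecam1 averaged only 4.47 and 3.57. The endothelial median was -0.04 without wild-type replicate 5, -0.07 without knockout replicate 1 and -0.24 without wild-type replicate 4.

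Measured markers of the habenula, cerebellum and pituitary all had positive differences, and none passed, against 0.022% of all genes. The median difference of all genes was also positive, at 0.05. The dimmest marker of each list averaged 4.25, 3.33 and 3.53, in the same order. The medial habenula, a nucleus known for high KCTD8 and KCTD12, had 6 of 6 markers higher, with a median of 0.19 and summed signals from 10.01 to 10.47 in knockouts and from 9.87 to 9.97 in wild types. Tac2, a habenular neuropeptide gene, differed by 0.28 and the transcription factor gene Pou4f1 by 0.34. At a mean of 9.57, Tac2 was the brightest of them and weighed most in the sum. Gng8 differed by 0.36, where knockout replicate 1 read 7.43 and the other knockouts 6.47 and 6.36. Chrnb4, Gpr151 and Chrna3 differed by only 0.11, 0.05 and 0.02. The habenular median was 0.06 without knockout replicate 1, 0.11 without wild-type replicate 6 and 0.31 without knockout replicate 3. Cerebellar markers were higher in 6 of 6 with a median of 0.21, at 11.47 to 11.79 and 11.29 to 11.40, and Cbln1 and Cbln3 differed by 0.31 and 0.42. Cbln1 was the brightest of them, at a mean of 10.84 over the 6 arrays, and weighed most in the sum. Pvalb and Pcp2 averaged 9.11 and 8.64, while Cbln3, Barhl1 and Gabra6 averaged only 4.32, 4.08 and 3.33. Whether cerebellar tissue remained in the samples was not tested. The cerebellar median was 0.10 without wild-type replicate 5 and 0.14 without knockout replicate 1. Gabra6, the receptor subunit of cerebellar granule cells, averaged 3.48 ± 0.0558 (SD, n = 3) over the knockouts and 3.18 ± 0.332 (SD, n = 3) over the wild types, near the dim end of the array. Pituitary markers were higher in 4 of 4 with a median of 0.91, at 7.40 to 11.24 and 7.25 to 8.26, the highest array being knockout replicate 3, where Gh read 10.62. Without that array the pituitary median was -0.02, while it was 1.67 without knockout replicate 2, 1.37 without wild-type replicate 6 and 0.53 without wild-type replicate 4. The hormone genes Prl and Pomc differed by 0.42 and 0.28. The part of these markers in the values of the receptor complex was not tested.

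**Figure D4:**
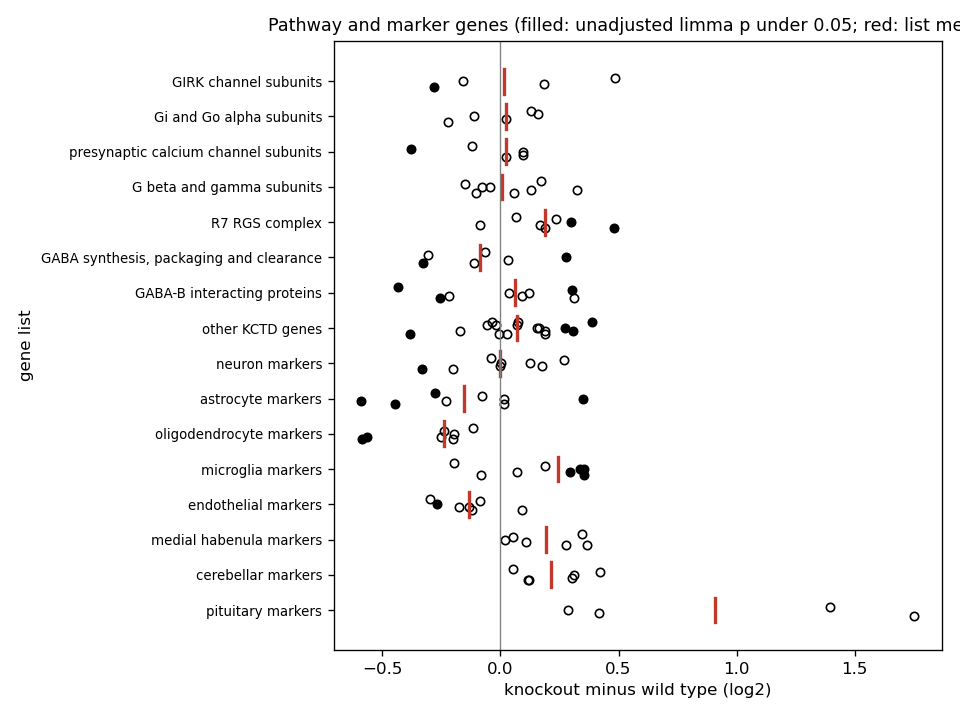
Knockout minus wild type (x axis, log2) for each measured gene of the 8 pathway and 8 marker lists, with filled points at an unadjusted limma p under 0.05 and the median of each list in red. No point passes over all probe sets. Medians of the pathway lists lie between -0.09 and 0.19.

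The genes most like each member over the 6 arrays were found by Pearson's r, as a description of these arrays only. For Gabbr1 they were Ttc41 (r = 0.995) and Nsmaf (0.993), for Kctd8 Arhgef26 (0.988) and Dkk1 (0.987), and for Kctd16 Cxcl5 (0.990) and Dido1 (0.987). The genotype contrast is part of each pattern, and the levels of Kctd8 and Kctd16 varied little. With 6 arrays and 18192 other genes, r over 0.9 was reached by many, 129 for Gabbr1, 122 for Kctd8 and 148 for Kctd16. Of the genes named here, Cxcl5, Dkk1 and Ttc41 were dim, averaging 2.74, 3.47 and 4.61.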

How the data were processed

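The deposited table holds the authors' log2 expression values for each probe set on each array. Per the submitters' processing notes, RMA and Partek were used, without a version, and no build is given in the sources used here. RMA normalizes arrays to a common distribution, gives dim probe sets a low positive signal and compresses folds near background. Array medians ran from 5.81 to 5.85, and the values were not normalized again. After 64 control probe sets were left out, 45037 were tested in R 4.3.3 with limma 3.58.1 (lmFit, eBayes), two-sided, with Benjamini-Hochberg adjustment over all of them and no filter on dim signal. The number of arrays limits the precision, and the median standard error was 0.123.

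Member genes and lists were chosen with earlier results of these data known. Probe sets were named through the platform annotation, and all 3 measured members were found in the RefSeq table of GRCm38.p6. The text names every member probe set, Gnb5, the 4 GIRK subunits, 2 genes per list with the smallest p and 2 genes per member with the highest r. Gad2, Kctd12b, Gabra6, Gh, Xist, Eif2s3y, App, Kctd2, Kctd17, Aldh1l1, Aldoc, Gfap, P2ry12, C1qa and Barhl1 were added after values were seen. So were Pvalb, Pcp2, Cldn5, Pecam1, Chrnb4, Gpr151, Chrna3 and Gng8. Within-array comparisons were planned against Gabbr2 and were made against Gabbr1, since no probe set lists Gabbr2. Alternatives covered a filter, normalizations, eBayes settings, array weights, 1 probe set per gene, Eif2s3y as covariate and arrays left out. The fit was tested on simulated data. Figures were drawn with matplotlib 3.10.9.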

Additional observations from a re-analysis of the deposited data

How the results depend on the processing

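No paired analysis was possible because the labels number knockouts and wild types apart. Under all 15 alternative settings the number of member probe sets with an adjusted p under 0.05 was 0, and over all arrays as deposited it was also 0 at the looser thresholds, 0.1 for the adjusted p or 0.05 for the unadjusted p. Unadjusted limma p values under 0.05 came up in 3 alternative values, for Gabbr1 1455021_at with trend and robust eBayes (0.0479) and for Gabbr1 1425595_at after quantile normalization (0.0385) and without wild-type replicate 6 (0.0394). Of 97 alternative values of member probe sets, 90 kept their sign and 7 turned it, all of differences whose adjusted p did not pass in any setting. For Gabbr1 1437188_at, the difference of -0.05 was 0.033 without both arrays that had their group's highest Eif2s3y (knockout replicate 2 and wild-type replicate 4) and ran from -0.13 to 0.01 with 1 array left out, positive without knockout replicate 2 (0.011) or wild-type replicate 5 (0.0092). For Kctd8 1441495_at, the difference of 0.04 was -0.0076 with array weights, -0.10 without that pair of arrays, and from -0.047 to 0.091 with 1 array left out, negative without knockout replicate 2 (-0.011) or wild-type replicate 4 (-0.047). The cause was not tested. Gabbr1 1455021_at kept its sign in all 15 settings, from -0.22 to -0.09, with adjusted p values from 0.317 to 0.773. Kctd8 relative to Gabbr1 ran from 0.14 to 0.43. Of 112 alternative list medians, 14 moved by more than the spread between arrays. When genes were read by their most variable probe set, medians went from -0.16 to -0.48 for astrocyte markers, from 0.06 to 0.27 for GABA-B interacting proteins, from 0.01 to 0.24 for GIRK subunits, from 0.02 to 0.19 for Gi and Go alpha subunits, from 0.02 to 0.11 for calcium channel subunits and from 0.07 to 0.10 for other KCTD genes. The 4 member probe sets below the median were not in the fit on brighter probe sets. Without detection calls, low signals could not be told from background.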

Other observations

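The 1 probe set that lists Kctd12, 1434881_s_at, lists Mir5130 as well, and in the RefSeq table Mir5130 lies within Kctd12. No gene was named from it, and its values were looked at after those of the members were known. Knockout arrays read 8.77, 8.60 and 8.59, and wild-type arrays 8.99, 9.00 and 9.00. All knockouts lay below all wild types, by a gap of 0.22. Groups did not overlap at 21.5% of all probe sets. The difference was -0.34 ± 0.0996 (SE), a fold of 0.788 with a 95% interval from 0.674 to 0.921. Its unadjusted limma p was 0.00713, and it did not pass over all probe sets (limma adjusted p = 0.235). It ran from -0.40 to -0.31 with 1 array left out, and adjusted p values over all alternatives ran from 0.145 to 0.481.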
